A study of Homo sapiens with 48 samples.

Results

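The subject is the H3K9me3 peaks that lie over zinc finger genes in ASPC1, an established human pancreatic ductal adenocarcinoma cell line. Of the 63955 broad peaks in the deposited H3K9me3 list, 489 overlapped by at least 1 bp the span of a gene named ZNF and a number, with or without a letter. The deposited count table lists 509 such genes, all protein-coding, of which 367 lay under at least 1 of these peaks and 142 under none. The other 63466 peaks are called the rest of the list. The peaks come from CUT&RUN, in which an antibody guides a nuclease to cut chromatin, on ASPC1 cells with a stable hairpin against ZNF274 (shZNF274) or a control hairpin (shCTRL). Both hairpin lines received 1 µg/ml doxycycline for 9 days, and each was profiled for H3K9me3, ZNF274 and IgG in 3 samples per antibody. No coverage per CUT&RUN sample was analysed here, so a peak has no replicate values, no SD and no test.

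RNA of the same genes was read from 30 libraries in 10 groups of 3. ASPC1 and CFPAC1, another established pancreatic cancer line, each gave an siRNA against ZNF274 (siZNF274), its control siRNA (siCTRL), azacitidine at 5 µM (AZA), which inhibits DNA methyltransferases, and its solvent (DMSO). Panc3.27, also an established pancreatic cancer line, with low endogenous ZNF274 per the design text, gave a vector overexpressing ZNF274 (OE) and an empty vector. The siRNA was transient, while the hairpin was stable, so the RNA and the peak list come from different perturbations. Libraries held 31415743 to 43383141 counts. The epithelial markers fixed for these lines (EPCAM, CDH1 and keratins KRT7, KRT8, KRT18 and KRT19) summed to at least 5001 counts per 1000000 (CPM) in every library, with none of the 6 at 0, and leukocyte markers summed to at most 5.41 CPM. The 3 fibroblast markers (DCN, LUM and PDGFRB) summed to 97.8 to 145.4 CPM in ASPC1 and at most 3.21 CPM elsewhere, and the 3 endothelial markers (PECAM1, VWF and CDH5) to 30.1 to 57.6 CPM in Panc3.27 and at most 5.40 CPM elsewhere. No marker was at 0 throughout, and their part in the results was not tested.

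Zinc finger genes of this kind form the largest family of human transcription factors, and many carry a KRAB domain. A KRAB domain binds the co-repressor TRIM28, which brings SETDB1, the enzyme that places trimethylation on lysine 9 of histone H3 (H3K9me3), a mark of silent chromatin bound by HP1 proteins. The genes arose by tandem duplication and sit in clusters, mostly on chromosome 19, and the clusters themselves are known to carry broad H3K9me3. ZNF274 is a member of the family that is known to bind the 3′ ends of other zinc finger genes and to bring SETDB1 there.

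Promoters are shown first because the peaks left most gene starts bare. The following are the 250 bases before the RefSeq start (GRCh38.p14) of the named genes with the most bases under peaks, or under peaks whose signal fell, for which RefSeq gave a start. Each reads 5′ to 3′ on the gene's own strand, with CG dinucleotides in capitals. ZNF536 (chr19:30228260-30228509, plus strand) and ZNF420 (chr19:37077972-37078221, plus strand) had all 250 bases under a peak. ZNF675 (chr19:23687213-23687462, minus strand) had 58 of them under a peak. ZNF678 (chr1:227563306-227563555, plus strand), ZNF432 (chr19:52048839-52049088, minus strand), ZNF195 (chr11:3379147-3379396, minus strand) and ZNF274 (chr19:58182811-58183060, plus strand) had none.
ZNF536: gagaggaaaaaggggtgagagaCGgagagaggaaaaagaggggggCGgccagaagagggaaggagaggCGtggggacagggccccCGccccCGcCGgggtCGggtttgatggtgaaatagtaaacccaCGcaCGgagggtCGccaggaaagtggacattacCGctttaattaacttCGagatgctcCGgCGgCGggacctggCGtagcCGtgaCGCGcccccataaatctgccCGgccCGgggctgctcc
ZNF675: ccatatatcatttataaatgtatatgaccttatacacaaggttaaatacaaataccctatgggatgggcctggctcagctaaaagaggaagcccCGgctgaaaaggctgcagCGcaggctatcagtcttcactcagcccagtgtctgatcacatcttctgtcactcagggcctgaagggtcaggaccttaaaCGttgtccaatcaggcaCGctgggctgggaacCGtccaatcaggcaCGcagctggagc
ZNF420: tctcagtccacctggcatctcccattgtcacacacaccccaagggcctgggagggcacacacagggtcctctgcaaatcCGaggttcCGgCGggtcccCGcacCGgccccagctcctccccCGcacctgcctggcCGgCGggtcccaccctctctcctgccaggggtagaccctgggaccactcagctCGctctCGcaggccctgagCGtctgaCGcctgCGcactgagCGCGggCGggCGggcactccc
ZNF678: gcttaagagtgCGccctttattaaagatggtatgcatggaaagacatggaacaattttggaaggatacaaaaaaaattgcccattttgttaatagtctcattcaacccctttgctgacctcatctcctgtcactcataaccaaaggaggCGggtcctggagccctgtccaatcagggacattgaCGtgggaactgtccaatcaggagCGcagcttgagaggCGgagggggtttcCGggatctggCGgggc
ZNF432: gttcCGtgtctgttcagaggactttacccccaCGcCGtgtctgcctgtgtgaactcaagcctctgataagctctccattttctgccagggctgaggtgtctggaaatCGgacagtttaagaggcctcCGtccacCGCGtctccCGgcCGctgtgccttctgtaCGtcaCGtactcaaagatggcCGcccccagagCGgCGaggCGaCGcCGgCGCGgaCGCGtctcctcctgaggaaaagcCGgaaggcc
ZNF195: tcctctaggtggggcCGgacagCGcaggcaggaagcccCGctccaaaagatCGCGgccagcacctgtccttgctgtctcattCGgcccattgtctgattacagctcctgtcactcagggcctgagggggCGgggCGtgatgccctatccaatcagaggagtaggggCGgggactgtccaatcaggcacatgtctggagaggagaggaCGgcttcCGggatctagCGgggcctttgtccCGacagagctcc
ZNF274: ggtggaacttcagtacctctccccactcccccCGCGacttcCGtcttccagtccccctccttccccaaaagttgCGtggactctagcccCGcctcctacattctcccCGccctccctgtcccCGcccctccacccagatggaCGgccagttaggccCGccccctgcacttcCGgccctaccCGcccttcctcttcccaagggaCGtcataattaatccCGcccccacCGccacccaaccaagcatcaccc

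CG was counted as the letters CG, which read the same on both strands and overlap no other motif searched. The counts in these windows were 21 for ZNF536, 17 for ZNF420, 6 for ZNF675, 7 for ZNF678, 22 for ZNF432, 13 for ZNF195 and 14 for ZNF274. So windows with and without a peak overlapped in their counts. Over the zinc finger genes with a peak, the median was 14 CG in windows at least 50% under a peak (quartiles 10 and 18.75) and 16 in windows that were not (quartiles 12 and 21). Zinc finger genes without any peak had a median of 21. The median over all 35116 RefSeq windows was 11, and 93.9% of them held at least 1 CG, as did 423 of the 426 zinc finger windows.

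Peaks over zinc finger genes were wide. Their median width was 8792 bp (95% interval of the median 7153 to 10983), against 3619 bp (3588 to 3648) for the rest of the list. Of the 489, 47.2% were at least 10 kb wide and 40 (8.18%) at least 100 kb, against 11.4% and 0.529% of the rest. The narrowest peak was 230 bp and the widest 931489 bp, and the 489 together spanned 16.9 Mb. A wide peak is more likely to touch any gene, so part of this difference follows from how the peaks were chosen. When at least 50% of the peak had to lie inside the gene, 373 peaks remained, with a median width of 6065 bp.

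The 8 widest peaks were all called in both hairpin groups, as were all 336 peaks of at least 100 kb in the rest. These 8 were on 3 chromosomes. The widest, at chr7:63628549-64560037, covered ZNF679, ZNF680, ZNF722P, ZNF727, ZNF735 and ZNF736. On chromosome 19, a peak of 482 kb (36689199 to 37171185) lay over 8 zinc finger genes, among them ZNF420, a repressor of p53 activity, and a peak of 394 kb (22928343 to 23322497) reached over ZNF91, known to silence SVA retrotransposons. The others were over ZNF248 on chromosome 10 (570 kb), over ZNF676, ZNF729 and ZNF98 on chromosome 19 (491 kb), over ZNF716 (443 kb) and ZNF479 (407 kb) on chromosome 7, and over 8 genes on chromosome 19 that include ZNF569 and ZNF570 (363 kb). Most peaks touched a single zinc finger gene (424 of 489), and 65 touched more than 1. Beside such blocks stood genes crossed by many short peaks. ZNF536, a regulator of neuronal differentiation without a KRAB domain, had 20 peaks, the most of any gene, and ZNF804B had 15.

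Chromosome 19 held 241 of the 489 peaks (49.3%), with a median width of 13999 bp, against 5608 bp for the 248 peaks on other chromosomes. These 241 were 27.4% of all 878 H3K9me3 peaks on that chromosome. Next came chromosome 7 with 41, chromosome 10 with 28, chromosome 3 with 23 and chromosome 16 with 20. Peaks on chromosome 19 that missed zinc finger genes had a median of 3512 bp (n = 637), close to the rest of the genome (3621 bp). In the longest run of genes near the centromere, ZNF101 to ZNF254 (19.7 to 24.1 Mb), all 37 zinc finger genes had a peak, and the 38 peaks had a median width of 58552.5 bp. In the run of 59 genes from ZNF628 to ZNF446 (55.5 to 58.5 Mb), 37 genes had a peak and the median width was 7956 bp. The peaks were also closer together, with the next peak within 2 kb for 33.5% of them and for 17.8% of the rest.

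The peaks covered the genes more than they marked their starts. Among the 367 genes with a peak, the median share of the span under peaks was 82.4%, 261 genes were at least 50% covered, 151 at least 90% and 93 wholly. RefSeq gave a start for 305 of the 367, on GRCh38.p14. The window of 250 bases before to 50 after that start was at least 50% under a peak in 102 of the 305 (33.4%), in 87 of 126 genes that were at least 90% covered, and in 5.04% of all RefSeq windows. Mean cover rose along the gene, with 38.1% of the first 5% of the span under a peak, 85.2% between 80 and 85% of the span and 80.4% of the last 5%. For 44 of the 305 genes the RefSeq start lay more than 1 kb inside or outside the 5′ end of the deposited span.

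**Figure D1:**
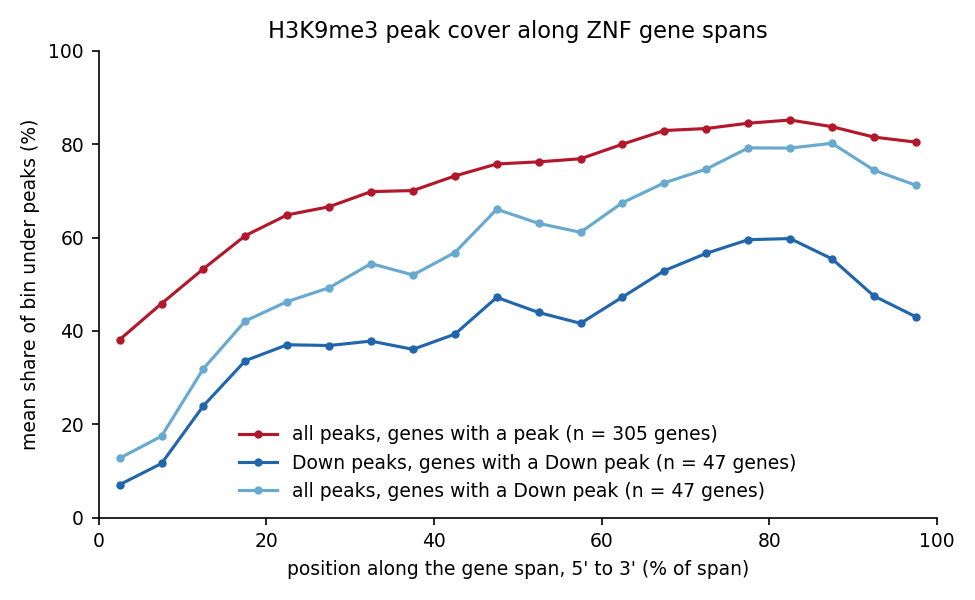
Mean share of each bin under H3K9me3 peaks (vertical axis, %) along the gene span from the 5′ to the 3′ end (horizontal axis, % of span, 20 bins). Red, all peaks over 305 zinc finger genes; light blue, all peaks over the 47 genes with a peak that the authors' deposited table calls Down; dark blue, those Down peaks alone over the same 47 genes. All 3 lines are lowest in the first bin (38.1, 12.7 and 7.10%) and highest between 80 and 90% of the span.

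Of the 203 genes with an uncovered promoter window, the nearest peaks on the 2 sides of the start left a median gap of 12477 bp, and in 54 the gap was at most 5 kb. ZNF274 is the tightest named example. Its start fell in a gap of 1005 bp between a peak of 281 kb that ended 302 bp upstream and its own peak of 36.6 kb that began 704 bp downstream. ZNF195 lay in a gap of 4746 bp and ZNF678 in one of 3505 bp. The RefSeq start of ZNF432 lay inside the deposited span. Its Down peak of 44.0 kb in the authors' deposited table lay upstream of that start, 426 bp away. The deposited annotation classes describe the same positions: 296 of the 489 peaks were called intron, 71 TTS, the end of a transcript (14.5%, exact 95% binomial interval 11.5 to 18.0), 60 exon (12.3%), 40 intergenic and 22 promoter-TSS (4.50%). In the rest, 52.9% were intergenic, 43.0% intron, 1.29% TTS, 1.05% exon and 1.04% promoter-TSS. Because every chosen peak overlaps a gene, a lower intergenic share than in the rest is given by the choice. The choice also raises the shares of the other classes, so these cannot be compared directly with the rest. Within chosen peaks, intergenic ones were the widest (median 48580.5 bp) and intron ones the narrowest (5265.5 bp).

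The next question was what the ZNF274 hairpin did to these peaks. Of the 489, 352 (72.0%) were listed in both hairpin groups, 34 (6.95%, exact interval 4.86 to 9.58) in shZNF274 only and 103 (21.1%, 17.5 to 24.9) in shCTRL only. In the rest of the list the 2 single-group classes stood in the other order, with 22.1% in shZNF274 only and 13.6% in shCTRL only. Intervals cover counting error only and treat peaks as separate, although neighbouring peaks share their gene and their libraries. Peaks in 1 group were narrow, with medians of 1763.5 bp for shZNF274 only and 2729 bp for shCTRL only, against 18274 bp for both. Single-group peaks were also the narrower ones in the rest, with medians of 1777, 1824 and 5119 bp in the same order. The widest peak in shZNF274 only was 6421 bp over ZNF536, and the widest in shCTRL only was 30412 bp over ZNF506, which was wholly without a peak call in shZNF274.

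The authors' deposited table calls each peak Down, Up or not changed in shZNF274 against shCTRL, by a threshold not given in the sources used. In that deposited table, 0.64% of the 63916 tested peaks were Down and 0.383% Up. By the authors' deposited calls, 72 of the 489 peaks over zinc finger genes were Down (14.7%, exact interval 11.7 to 18.2) and 1 was Up, against 337 Down (0.531%) and 244 Up (0.384%) in the rest. So 17.6% of the 409 Down peaks of the authors' deposited table lay over these genes. In the authors' deposited table, 7.67% of the peaks listed in both groups were Down, against 0.243% of the rest listed in both, and 43.7% of those in shCTRL only, against 2.75%. On the same calls, 18.7% of the peaks on chromosome 19 and 10.9% of those elsewhere were Down, against 1.26% and 0.524% of the rest on the same chromosomes. By width, the deposited Down share was 14.3% under 2 kb, 20.5% from 2 to 5 kb, 18.1% from 5 to 10 kb, 21.0% from 10 to 20 kb and 13.2% from 20 to 50 kb, against 0.359 to 0.640% in the same classes of the rest. None of the 38 peaks of 50 to 100 kb and none of the 40 wider ones was Down in the authors' deposited table, with exact upper limits of 9.25 and 8.81%. The rest of the list had no Down peak of these widths either, among 393 and 336 peaks.

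**Figure D2:**
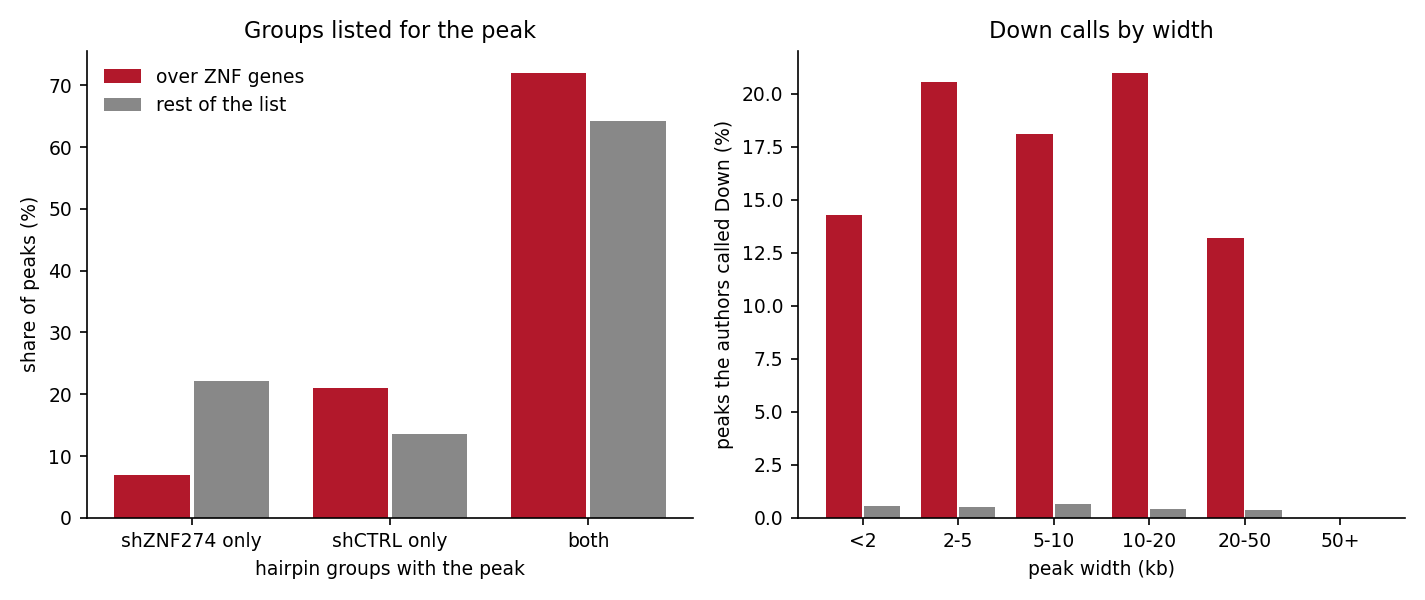
Left, share of peaks (vertical axis, %) listed in shZNF274 only, in shCTRL only or in both, for the 489 peaks over ZNF genes (red) and the 63466 other peaks (grey). Right, share of peaks that the authors' deposited table calls Down (vertical axis, %) by peak width (horizontal axis, kb), in the same colours. Red bars lie between 13.2 and 21.0% up to 50 kb, and both colours are at 0 above it.

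The Down peaks were over 55 zinc finger genes, and 13 chromosomes held at least 1. Of these 55 genes, 32 (58.2%) were on chromosome 19, a share close to that of all genes with a peak (214 of 367). Of the 72 Down peaks in the authors' deposited table, 45 were listed in shCTRL only and 27 in both groups. The widest was the 44.0 kb peak at chr19:52049264-52093258 over ZNF432, a factor linked to DNA repair, and ZNF841. ZNF322 on chromosome 6 (42.1 kb), ZNF397 on chromosome 18 (38.03 kb), ZNF274 itself (36.6 kb) and ZNF184 on chromosome 6 (35.9 kb) followed in that deposited table. The ZNF274 peak (chr19:58183765-58220390) covered 97.6% of its gene and was listed in both groups. The only Up peak of the authors' deposited table was 1075 bp over an intron of ZNF438, at chr10:30937136-30938210, and was listed in shZNF274 only.

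The Down peaks covered gene starts less than later parts of the span, as did all peaks over the same genes. In 30 of the 55 genes every peak was Down in the authors' deposited table, and in 23 such peaks covered at least 50% of the span. Among the 47 of these genes with a RefSeq start, 3 had a promoter window under a peak of any call: ZNF717, ZNF814 and ZNF875. Peaks that the authors' deposited table calls Down covered a mean of 7.10% of the first 5% of the 47 spans, 59.8% between 80 and 85% and 43.1% of the last 5%. Over the same bins and genes, peaks of any call covered 12.7, 79.2 and 71.2%. By annotation class, 25.4% of TTS peaks were Down in the authors' deposited table, 18.2% of promoter-TSS, 14.2% of intron, 11.7% of exon and 2.50% of intergenic peaks. In the same classes of the rest, the deposited Down share was 1.83% for TTS, 1.51% for promoter-TSS, 0.641% for intron, 2.11% for exon and 0.366% for intergenic peaks. ZNF195 on chromosome 11 (3339261 to 3379222) had 1 peak, Down in the deposited table, over 86.1% of its span. ZNF28 (chromosome 19, 52797408 to 52857600) had 3, all Down, over 72.4%, and ZNF506 (19785839 to 19821751) had 2, both Down in the authors' deposited table, over 93.3%.

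Where they clustered, the Down peaks ran through neighbouring genes. Between ZNF808 and ZNF888 (chr19:52527652-52923481) lay a stretch of 396 kb with 9 zinc finger genes, chosen after the calls were seen. It held 22 peaks, 19 of them over zinc finger genes, and the authors' deposited table calls 17 of these 19 Down. Of the 19, the 11 peaks listed in shCTRL only were all Down in that deposited table, as were 6 of the 8 in both groups. ZNF808, ZNF701, ZNF83, ZNF611, ZNF600, ZNF28, ZNF468, ZNF320 and ZNF888 are the genes of the stretch, and ZNF600 had no Down peak. Other runs lacked such peaks: the authors' deposited table calls 0 of 12 peaks Down between ZNF557 and ZNF846 (7.07 to 9.79 Mb) and 0 of 27 between ZNF575 and ZNF296 (43.5 to 45.1 Mb). Related genes named ZSCAN, ZKSCAN or ZFP (n = 47) had 26 further peaks. The authors' deposited table calls 1 of these 26 Down (3.85%, resting on 1 peak), against 0.531% of the rest. Of the 337 Down peaks of the rest, 20 (5.93%) lay within 50 kb of a zinc finger gene, as did 0.791% of all peaks of the rest.

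RNA of every zinc finger gene under a Down peak was detected. All 55 genes with a peak called Down in the authors' deposited table passed the filter on low counts in the libraries of each of the 3 lines, while of all 367 genes with a peak, 261 passed in ASPC1, 331 in CFPAC1 and 303 in Panc3.27, and of the 142 without a peak, 128 passed in ASPC1. Among the 373 peaks over a gene that passed in ASPC1, 72 (19.3%) were Down in the authors' deposited table, against 0 of the 116 over genes that did not pass. The shCTRL only share was 22.0% and 18.1% in these 2 sets. Of the 102 genes with a promoter window under a peak, 31 passed in ASPC1, against 191 of 202 with an uncovered window, leaving out ZNF274. In bulk libraries, fewer cells with the transcript and less RNA per cell cannot be told apart. The libraries of CFPAC1 passed 81 and 199 of the same genes, and no peak list of that line was used here.

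RNA of the peak genes was compared next, leaving out ZNF274, one line at a time by the quasi-likelihood test of edgeR, at a Benjamini-Hochberg adjusted p of 0.05 over every gene tested. ZNF274 itself comes first, as a check of the labels. In ASPC1 its level was 16.6, 19.2 and 22.4 CPM in libraries labelled siZNF274 and 15.8, 16.3 and 20.6 CPM in siCTRL libraries (log2 fold change 0.15 ± 0.11 SE, adjusted p = 0.305). In CFPAC1 it was 32.6, 34.4 and 31.5 CPM with siZNF274 and 33.5, 34.0 and 35.7 CPM with siCTRL (log2 fold change -0.07 ± 0.06, adjusted p = 0.423). The groups overlapped in both lines, so the RNA does not show the knockdown that the labels name, and the libraries are called by their labels below. In Panc3.27 it was 133, 135.2 and 139 CPM with OE and 47.4, 50.4 and 49.4 CPM with the empty vector, 2.76-fold higher (adjusted p = 4.17e-11). Vector transcripts cannot be told apart from those of the gene in these counts.

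In ASPC1 libraries labelled siZNF274, 109 of the 260 tested genes with a peak were higher (41.9%) and 18 lower (6.92%), against 21.5% and 24.2% of all 16186 genes tested (45.7% in either direction). Their median log2 fold change was 0.22, against -0.00 for all genes. Of the 128 zinc finger genes without a peak, 35 were higher (27.3%) and 18 lower (14.1%). By cover, 87 of 167 genes with at least 50% of the span under peaks were higher (52.1%), against 22 of 93 with less (23.7%). On chromosome 19, 75 of 136 peak genes were higher (55.1%), against 12 of 32 zinc finger genes there without a peak (37.5%) and 24.7% of the other genes there. Off chromosome 19, 34 of 124 peak genes were higher (27.4%) and 15 lower (12.1%), against 23 of 96 higher (23.96%) and 15 lower (15.6%) without a peak. Of other genes at least 50% under peaks, 30 of 171 were higher (17.5%). These shares are over genes that passed the filter. It kept 136 of 213 peak genes on chromosome 19 and 32 of 33 there without a peak. Over all of these genes, tested or not, 75 of 213 and 12 of 33 were higher, which are similar shares. By cover, 87 of 260 genes with at least 50% were higher and 22 of 106 with less, tested or not. Without a filter 110 of 332 peak genes were higher (33.1%), and 32 of 137 without a peak (23.4%). The difference between these sets of genes was not tested, since the members were chosen with the results known.

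**Figure D3:**
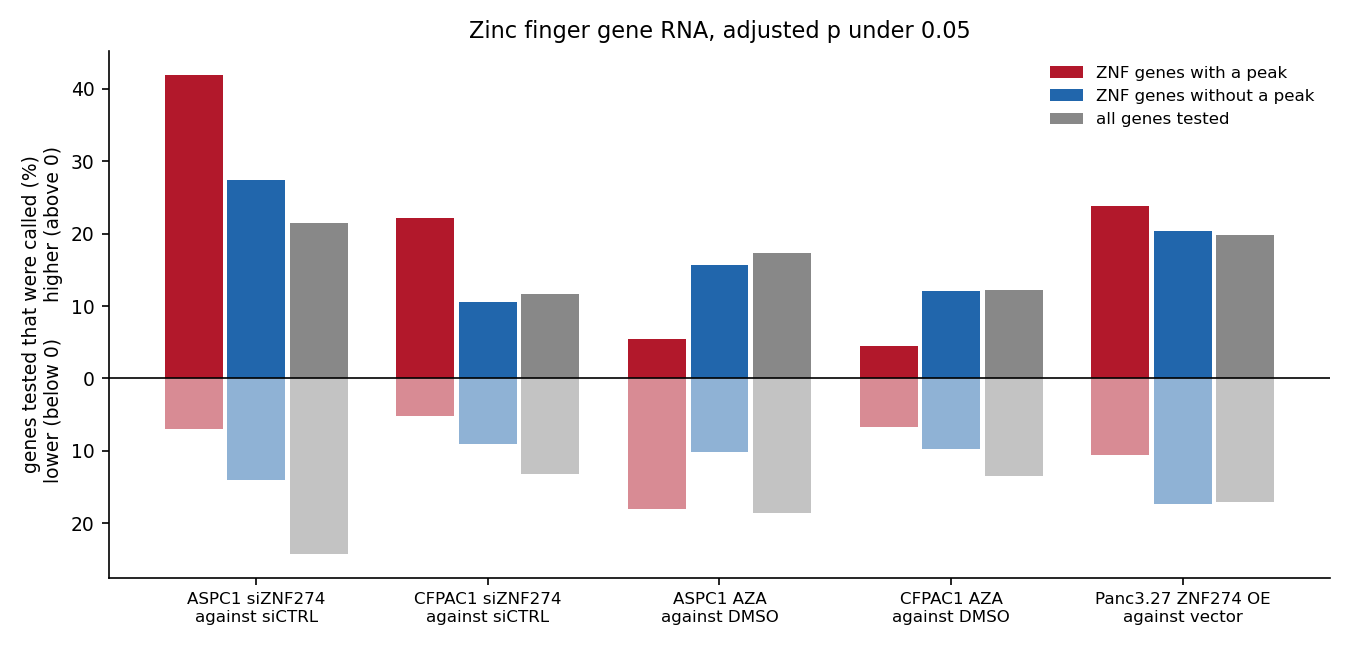
Share of tested genes (vertical axis, %) called higher (solid bars, above 0) or lower (pale bars, below 0) by edgeR at an adjusted p under 0.05, in 5 comparisons (horizontal axis), for ZNF genes with a peak (red), without one (blue) and all genes tested (grey). In both siZNF274 comparisons the red bar is the tallest above 0 (41.9 and 22.1%), and in both AZA comparisons it is the shortest above 0 (5.38 and 4.55%).

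The 5 largest rises in ASPC1 by the naming rule were on chromosome 19 and without a Down call in the authors' deposited table. ZNF529 had 10.0, 10.5 and 10.8 CPM with siZNF274 and 3.24, 3.04 and 3.73 CPM with siCTRL (log2 fold change 1.65 ± 0.12 SE, adjusted p = 1.55e-08 by edgeR). ZNF570, whose gene is 97.8% under the 363 kb peak, had 2.38, 1.69 and 2.16 CPM with siZNF274 and 0.405, 0.361 and 0.426 CPM with siCTRL (2.39 ± 0.28, adjusted p = 4.29e-06). In both genes every siZNF274 library was above every siCTRL library, which the naming rule requires. ZNF559, ZNF836 and ZNF69 had log2 fold changes of 1.28, 1.15 and 1.14. Of the largest falls, ZNF25 had 3.99, 4.33 and 4.53 CPM with siZNF274 and 9.70, 8.79 and 8.45 CPM with siCTRL (-1.07 ± 0.11, adjusted p = 8.14e-07). The other falls named by the rule were ZNF512, ZNF165, ZNF33B and ZNF782, with log2 fold changes between -0.72 and -0.51. ZNF165 encodes a testis antigen, and its span was 34.0% under peaks.

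**Figure D4:**
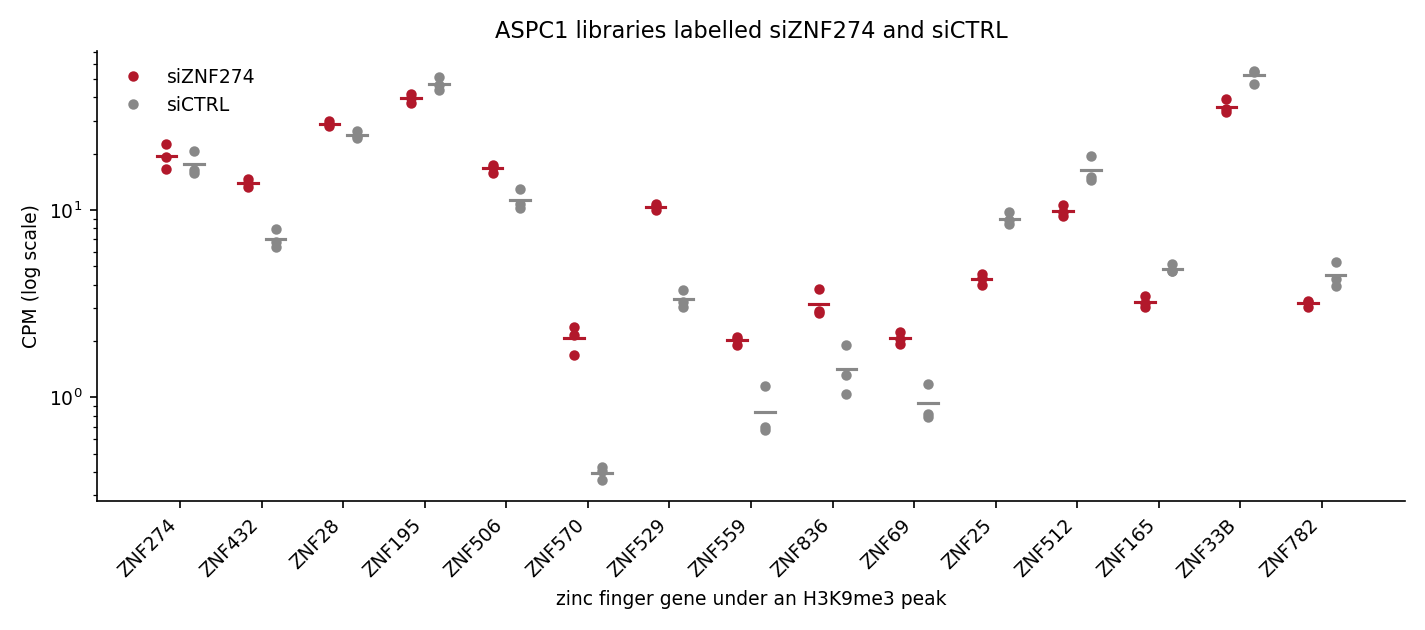
Level of zinc finger genes (vertical axis, CPM, log scale) in single ASPC1 libraries labelled siZNF274 (red) and siCTRL (grey), with lines at the means of 3 libraries. ZNF274 to ZNF506 are the genes with the most bases under peaks called Down in the authors' deposited table, ZNF570 to ZNF69 the largest rises and ZNF25 to ZNF782 the largest falls. ZNF274 overlaps between groups, and the other genes do not, which the naming rule requires of the rises and falls.

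The next comparison set genes whose peaks fell with the hairpin beside the other peak genes in the siRNA libraries. Of the 54 genes with a peak called Down in the authors' deposited table, 24 were higher in ASPC1 (44.4%) and 3 lower, against 85 higher (41.3%) and 15 lower of 206 genes with only other peaks. Their median log2 fold changes were 0.20 and 0.23, and the difference was not tested. ZNF432, which by its deposited span has the most bases under such peaks, had 13.3, 14.6 and 14.01 CPM with siZNF274 and 6.78, 6.34 and 7.90 CPM with siCTRL (log2 fold change 1.00 ± 0.09 SE, adjusted p = 4.48e-07 by edgeR). Its Down peak lies upstream of its RefSeq start and downstream of that of ZNF841. The nearest peak downstream of the ZNF432 start was not called changed. ZNF506 had 15.8, 16.95 and 17.4 CPM with siZNF274 and 13.0, 10.2 and 10.8 CPM with siCTRL (0.56 ± 0.09, adjusted p = 6.42e-05). ZNF28 rose by less, with 28.7, 30.0 and 28.0 CPM against 26.5, 24.8 and 24.3 CPM with siCTRL (0.20 ± 0.06, adjusted p = 0.0145). ZNF195 fell, with 37.1, 39.4 and 41.6 CPM with siZNF274 and 51.1, 43.4 and 46.5 CPM with siCTRL (-0.26 ± 0.07, adjusted p = 0.00505). So among these 4 genes RNA rose in 3 and fell in 1, and no library of one group crossed into the other.

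Of the genes with the most bases under peaks, ZNF420 had 2.86, 2.74 and 2.52 CPM with siZNF274 and 1.54, 1.44 and 1.25 CPM with siCTRL in ASPC1 (log2 fold change 0.94 ± 0.16, adjusted p = 0.000151 by edgeR). ZNF678 on chromosome 1, 97.5% covered, rose by 0.60 ± 0.07 (adjusted p = 4.11e-06). ZNF675, known to dampen signalling through TRAF6, had overlapping groups, with 2.19, 2.20 and 2.43 CPM with siZNF274 and 2.84, 2.17 and 2.23 CPM with siCTRL. ZNF536 and ZNF98 did not pass the filter in ASPC1. The nuclear transcripts MALAT1 and NEAT1 together took 1.22, 1.24 and 1.44% of counts in the siZNF274 libraries and 1.10, 0.624 and 0.906% in the siCTRL libraries of ASPC1, and their part in these results was not tested.

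In CFPAC1 libraries labelled siZNF274, 73 of 330 tested peak genes were higher (22.1%) and 17 lower (5.15%), against 11.6% and 13.2% of all 18103 genes tested. The median log2 fold change was 0.12, against -0.01 for all genes, and 14 of 133 zinc finger genes without a peak were higher (10.5%) and 12 lower. Of genes with a Down peak in the authors' deposited table, 8 of 54 were higher (14.8%) and 4 lower (7.41%), against 65 higher (23.6%) and 13 lower (4.71%) of 276 with only other peaks, and this difference was not tested. ZNF850, on chromosome 19 and wholly under a peak of the ASPC1 list, had 25.6, 23.8 and 23.6 CPM with siZNF274 and 12.2, 12.1 and 14.1 CPM with siCTRL (0.93 ± 0.08, adjusted p = 1.09e-06 by edgeR). ZNF486 (1.00), ZNF90 (0.91), ZNF501 (0.91) and ZNF880 (0.89) were the other large rises on the log2 scale, all wholly under peaks of ASPC1. ZNF90 lost its call with DESeq2 and without each of 4 libraries. The largest falls were ZNF114 (-0.73), ZNF804A (-0.60), ZNF165 (-0.50), ZNF512 (-0.46) and ZNF215 (-0.44), and these were at most 34.0% under peaks. ZNF804A lost its call without each of 4 libraries.

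Without siZNF274 replicate 1 or 2, the CFPAC1 count of lower genes was 8 or 9 in place of 17. ZNF506 rose in CFPAC1 too, with 17.4, 17.6 and 18.1 CPM with siZNF274 and 10.7, 11.5 and 11.3 CPM with siCTRL (0.67 ± 0.08, adjusted p = 1.53e-05). ZNF432 rose by 0.53 ± 0.10 (adjusted p = 0.00139) and ZNF195 fell by 0.24 on the log2 scale (adjusted p = 0.0117), while ZNF28 was at -0.00 (adjusted p = 0.989). The effect of siZNF274 differed between the lines in 50 peak genes by an interaction test in edgeR over 332 tested, with ASPC1 above CFPAC1 in 44 (13.3%) and below in 6, against 7.37% and 9.28% of all 19094 genes.

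With azacitidine fewer peak genes were higher than lower. In ASPC1, 14 of 260 peak genes were higher with AZA than with DMSO (5.38%) and 47 lower (18.1%), against 17.2% and 18.6% of all genes tested (35.8% in either direction). The median log2 fold change was -0.04. Without AZA replicate 3 the higher count was 9, and without DMSO replicate 1 the lower count was 31. None of the 54 genes with a Down peak in the authors' deposited table was higher and 14 were lower (25.9%), against 14 higher (6.80%) and 33 lower (16.0%) of 206 with only other peaks. Zinc finger genes without a peak had 20 of 128 higher (15.6%) and 13 lower (10.2%). By promoter window, 8 of 31 tested genes with a covered window were higher, against 3 of 191 with an uncovered one. Without a filter these were 10 of 83 and 3 of 199. Of the 47 genes with a RefSeq start and a Down peak in the authors' deposited table, 3 had a covered window. The part of promoter cover in the contrast between genes with and without a Down peak was not tested. MALAT1 and NEAT1 together took 1.61, 1.49 and 1.48% of counts with AZA and 1.10, 0.875 and 0.958% with DMSO in ASPC1, and their part was not tested.

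ZNF772, wholly under a peak, had 0.801, 1.38 and 1.45 CPM with AZA and 0.639, 0.451 and 0.346 CPM with DMSO (log2 fold change 1.33 ± 0.30, adjusted p = 0.0026 by edgeR). ZNF274 had 20.1, 18.9 and 18.6 CPM with AZA and 14.5, 12.3 and 14.3 CPM with DMSO (0.49 ± 0.11, adjusted p = 0.00317). ZNF469, ZNF529 and ZNF134 were the other rises named by the rule, and ZNF274 was also higher with AZA in CFPAC1 (0.16, adjusted p = 0.0464 by edgeR). Among the largest falls were ZNF165 (-0.84), ZNF860 (-0.69), ZNF555 (-0.69), ZNF273 (-0.68) and ZNF138 (-0.59). ZNF28 had 17.5, 17.9 and 17.4 CPM with AZA and 25.9, 23.4 and 23.6 CPM with DMSO (-0.47 ± 0.06, adjusted p = 2.3e-05).

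In CFPAC1, 15 of 330 peak genes were higher with AZA (4.55%) and 22 lower (6.67%), against 12.2% and 13.5% of all genes tested, with a median log2 fold change of -0.01. Without each AZA library in turn, 8 or 9 were higher. Without AZA replicate 1 or 2 or DMSO replicate 1 or 2, 13 were lower. MALAT1 and NEAT1 took 0.563, 0.584 and 0.713% of counts with AZA and 0.536, 0.485 and 0.364% with DMSO in CFPAC1, and their part was not tested. ZNF860, whose only peak is called Down in the authors' deposited table, had 5.59, 4.78 and 4.78 CPM with AZA and 3.273, 3.594 and 2.995 CPM with DMSO (0.62 ± 0.12, adjusted p = 0.00114 by edgeR), the opposite direction to ASPC1. ZNF256, ZNF132, ZNF829 and ZNF114 rose by 0.66, 0.54, 0.45 and 0.43. The largest falls were ZNF804A (-0.73), ZNF609 (-0.62), ZNF117 (-0.62), ZNF555 (-0.62) and ZNF25 (-0.51). The effect of AZA was higher in ASPC1 than in CFPAC1 for 20 peak genes and lower for 14 of 332, against 8.65% and 8.66% of all genes tested, by the interaction test.

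In Panc3.27, 72 of 302 tested peak genes were higher with OE than with the empty vector (23.8%) and 32 lower (10.6%), against 19.8% and 17.1% of all 17350 genes. The share of higher genes was thus near the background, and the median log2 fold change was 0.05. On chromosome 19, 57 of 170 peak genes were higher (33.5%) and 9 lower, while 23.5% of the other genes there were higher. Off chromosome 19, 15 of 132 peak genes were higher (11.4%) and 23 lower (17.4%), with a median log2 fold change of -0.04. ZNF684 on chromosome 1 had 12.8, 13.6 and 16.5 CPM with OE and 2.80, 3.24 and 3.53 CPM with the vector (2.16 ± 0.12, adjusted p = 1.38e-08 by edgeR). ZNF71, wholly under a peak of ASPC1, had 25.04, 23.95 and 25.33 CPM with OE and 11.01, 9.01 and 8.99 CPM with the vector (1.36 ± 0.08, adjusted p = 2.91e-08). In both genes all OE libraries were above all vector libraries, which the naming rule requires. ZNF699 (0.86) and ZNF569 (0.83) also rose, and ZNF618 (-0.73), ZNF860 (-0.57), ZNF275 (-0.56), ZNF469 (-0.49) and ZNF620 (-0.46) fell. Of genes with a Down peak in the authors' deposited table, 13 of 54 were higher (24.1%) and 5 lower (9.26%), against 59 higher (23.8%) and 27 lower (10.9%) of 248 with only other peaks. ZNF506 and ZNF28 rose by 0.42 and 0.23, in the same direction as with siZNF274 in ASPC1.

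The last list holds 25 genes linked to H3K9me3 or to silent chromatin more broadly, all of them tested. Not all of them write, read or erase the mark: CHD3, CHD4, DAXX and DNMT1 are among them. With siZNF274, 3 were higher and 6 lower in ASPC1 (21.5% and 24.2% of all genes), and 0 and 4 in CFPAC1 (11.6% and 13.2%). With AZA, 5 were higher and 2 lower in ASPC1 (17.2% and 18.6%), and 2 and 10 in CFPAC1 (12.2% and 13.5%). With OE in Panc3.27, 3 were higher and 11 lower (19.8% and 17.1%). Lower genes were 40.0% of the list in CFPAC1 with AZA and 44.0% with OE. They were 24% and 16% with siZNF274 in ASPC1 and CFPAC1, and 8% in ASPC1 with AZA. OE was the only comparison in which most of the list was called. TRIM28 had a log2 fold change of -0.17 in CFPAC1 with siZNF274, 0.22 in ASPC1 with AZA and -0.24 in Panc3.27 with OE. SETDB1 passed in CFPAC1 with AZA (-0.22) and in Panc3.27 (0.24). In ASPC1 with siZNF274, the demethylase KDM4A fell by 0.44 and KDM4B rose by 0.33, CBX5, an HP1 protein, fell by 0.31 and the chromatin remodeller CHD4 rose by 0.34.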

How the data were processed

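RNA-seq counts per gene and a broad H3K9me3 peak list were used as deposited. Per the labels, total RNA was made into stranded libraries after rRNA depletion. The submitters' processing notes name STAR 2.7.10b for the RNA-seq samples and Bowtie2, MACS2, bedtools, HOMER, featureCounts and edgeR for the CUT&RUN samples, on hg38, with no order. The sources used here do not give the program or strand setting behind the RNA-seq counts, the threshold of the Down and Up calls, or whether replicates were pooled before peak calling. The deposited counts are whole numbers per gene, with no normalization. The peak list deposited by the authors holds a score of 1000 for every peak, which was not used.

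A peak was taken when it overlapped by at least 1 bp the span of a gene whose name is ZNF, digits and at most 1 letter. Starts were made 1-based. Medians have 95% intervals from order statistics, shares have exact Clopper-Pearson 95% intervals, and both cover counting error only. RefSeq windows (GRCh38.p14) were matched by gene. Counts were tested per cell line over all its libraries with edgeR 4.0.16 in R 4.3.3 (filterByExpr, TMM, quasi-likelihood test, Benjamini-Hochberg adjustment at 0.05), and effects were compared between lines by interaction over the 24 ASPC1 and CFPAC1 libraries. CPM are counts per 1000000, TMM-scaled within a line, and are not comparable between genes because gene length was not used. DESeq2 1.42.0, other scalings, no filter and leaving out each library were the alternatives. The scripts were tested on simulated counts.

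Named genes were ZNF274, the 5 with the most bases under peaks, the 5 with the most under Down peaks, and up to 5 rises and 5 falls per comparison with a mean of at least 1 CPM in a group and groups that do not overlap. Members and lists were chosen with earlier results of these data known. Whether replicates were separate cultures is not stated beyond triplicate, so p-values reflect only how these samples vary, which may be technical. No replicate pair held identical counts. Of the 367 spans with a peak, 219 overlap another gene of the table, and related zinc finger genes share sequence, so their counts may be split.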

Additional observations from a re-analysis of the deposited data

Results flagged for a closer look

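Of the zinc finger genes named above, 9 differed between ASPC1 and CFPAC1 in their response to siZNF274 by the interaction test in edgeR. Of all 19094 genes tested, 16.6% differed in either direction. The named genes include the largest rises and falls of each line in the same libraries, so their choice favours a difference. The ASPC1 minus CFPAC1 difference in log2 fold change was 1.86 for ZNF570 (adjusted p = 4.34e-06), 1.38 for ZNF529 (adjusted p = 7.61e-08), 1.03 for ZNF69, 0.90 for ZNF559 and 0.79 for ZNF836. It was 0.54 for ZNF420 and 0.45 for ZNF432, both of which rose in both lines. It was -0.77 for ZNF25 and -0.70 for ZNF33B. For ZNF33B the log2 fold change was -0.56 in ASPC1 and 0.13 in CFPAC1.

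The response to AZA differed between the lines in 8 named genes by the same test, and in 17.3% of all 19094 genes tested. These genes were named in the same way, so here too the choice favours a difference. The difference was -1.31 for ZNF860 (adjusted p = 2.18e-07), which had a log2 fold change of -0.69 in ASPC1 and 0.62 in CFPAC1. It was 1.15 for ZNF772, 0.80 for ZNF117, 0.60 for ZNF529 and 0.56 for ZNF609. It was -0.58 for ZNF165, -0.55 for ZNF273 and -0.34 for ZNF28. The cause of these differences was not tested.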

How the results depend on the processing

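With at least 50% of a peak required inside the gene, the median width was 6065 bp, 64.6% of peaks were in both hairpin groups, 26.5% in shCTRL only, and 211 genes had a peak. Without chromosome 19, 248 peaks over 153 genes remained, with a median of 5608 bp and 11.3% in shZNF274 only. Peaks in both groups had a median of 18274 bp. Peaks over 1 zinc finger gene had a median of 6970.5 bp, 44.3% were on chromosome 19, and they covered 242 genes. The Down share in the authors' deposited table was 10.9% without chromosome 19 and 7.67% among peaks in both groups. With genes at least 50% under peaks alone, lower genes numbered 7 and 4 with siZNF274 in ASPC1 and CFPAC1, 26 and 10 with AZA, and 12 with OE. As shares of the genes tested, these were 4.19, 1.74, 15.6, 4.35 and 5.83%, against 6.92, 5.15, 18.1, 6.67 and 10.6% of all peak genes. Without a filter, the AZA interaction had 8 lower genes. The cause was not tested for either change.

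Leaving out 1 library gave, with siZNF274, 90 to 118 higher and 14 to 20 lower in ASPC1, and 51 to 82 higher and 8 to 20 lower in CFPAC1. With AZA it gave 9 to 13 higher and 31 to 43 lower in ASPC1, and 8 to 14 higher and 13 to 25 lower in CFPAC1. With OE it gave 50 to 62 higher and 23 to 32 lower. The interaction gave 31 to 52 higher and 4 to 8 lower for siZNF274, and 12 to 20 higher and 9 to 13 lower for AZA. The AZA interaction fell to 12 higher without ASPC1 AZA replicate 1, 13 without ASPC1 DMSO replicate 1 or 3, and to 9 lower without CFPAC1 AZA replicate 1 or CFPAC1 DMSO replicate 3.

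Same-numbered replicates did not deviate together throughout (r from -0.167 to 0.282), so the numbers were not used as pairs. With a replicate block the higher and lower counts were 114 and 20, 74 and 18 with siZNF274 in ASPC1 and CFPAC1, 15 and 50, 15 and 21 with AZA, and 72 and 30 with OE, and the interactions gave 46 and 7, and 22 and 14. Of 1039 values of named genes under the alternatives, 1009 kept their direction and call, 25 lost the call, 5 gained it and 0 reversed. Upper quartile scaling turned the CFPAC1 AZA median of peak genes to 0.04.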
